A study of Mus musculus with 6 samples.

Results

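Cathepsins are the proteases that do much of the protein breakdown in lysosomes. Most are cysteine proteases of the papain family (*Ctsb*, *Ctsc*, *Ctsh*, *Ctsk*, *Ctsl*, *Ctss* and *Ctsz*), *Ctsd* and *Ctse* are aspartic proteases, and *Ctsa* is a serine carboxypeptidase. They are made as inactive proenzymes and carried to the lysosome by receptors such as those for mannose 6-phosphate. Cleavage in the acidic compartment switches them on, while cystatins hold escaped cysteine cathepsins in check. In macrophages cathepsins digest engulfed material and trim antigens and the invariant chain for presentation by MHC class II. The 10 genes were taken by symbol from the 22248 genes with deposited FPKM values (fragments scaled to transcript length and library size), with no threshold on a measured value, though results of these data were known when the family was chosen.

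RNA came from resting bone-marrow-derived macrophages (BMDMs), which were grown from bone marrow cells with macrophage colony-stimulating factor for 7 days. Control BMDMs came from Lyz2cre mice (3 libraries), and CITED2-deficient BMDMs came from Cited2 fl/fl:Lyz2cre mice (3 libraries). Both genotypes are C57BL/6 and carry 1 Cre allele at the *Lyz2* locus, which is active in myeloid cells, so CITED2 loss depends on Cre activity in each cell. The labels give an age of 10 weeks and the methods 8 weeks. Nothing states that each library came from a different mouse, so p-values measure the spread between these libraries.

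The libraries held 17289286 to 18952077 fragments in control BMDMs and 22583995 to 26100410 in CITED2-deficient BMDMs, recovered from the steps between FPKM values. *Cited2* itself had an FPKM of 75.5 ± 3.79 (SD, n = 3) against 8.01 ± 1.10 after its deletion, which goes with the labels. All 8 macrophage markers were tested, 1 being higher and 5 lower, with a summed FPKM of 5624 to 5694 in control and 5287 to 5367 in CITED2-deficient libraries, although *Lyz2* was low (30.6 to 32.5 and 9.39 to 10.0). Of 10 fibroblast or stromal markers 8 were tested and all 8 were higher in CITED2-deficient BMDMs, with summed FPKM of 54.0 to 63.8 against 206 to 599, the highest in CITED2-deficient replicate 1, and *Lum* and *Thy1* stayed below a mean FPKM of 1. Neutrophil and precursor markers summed to 740 to 810 against 661 to 780, with 6 of 8 tested genes lower and 1 higher. The osteoclast list summed to 172 to 192 against 212 to 219, with 1 of 4 tested genes higher (*Atp6v0d2*, 138 to 177) and 2 lower. *Oscar* was at 0 in all control libraries and at 0 to 0.0539 in CITED2-deficient libraries. Of the other lists, 1 of 1 tested dendritic cell gene, 1 of 1 B cell gene and 2 of 3 endothelial genes were higher, and no T or NK cell, mast cell or erythroid marker reached the filter. The part of these markers in the cathepsin results was not tested unless a value is given beside the result.

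All 10 cathepsins had a mean FPKM of at least 1 and were tested on log2(FPKM + 1) with limma, in 1 fit over 11687 genes, with Benjamini-Hochberg adjusted p below 0.05 as the threshold. In CITED2-deficient BMDMs 6 cathepsins rose (*Ctss*, *Ctse*, *Ctsk*, *Ctsz*, *Ctsh* and *Ctsd*), *Ctsc* fell, and *Ctsa*, *Ctsb* and *Ctsl* did not pass. Of all 11687 tested genes, 51.3% passed the threshold, 16.7% as higher and 34.6% as lower. The groups did not overlap for 9 of the 10 cathepsins, 8 higher and 1 lower, while 59.9% of all tested genes had groups that did not overlap (19% higher and 40.9% lower). The median log2 fold change of the 10 genes was 0.33, against -0.10 for all tested genes. Scaling moved these counts: with libraries aligned on their median gene (median-ratio scaling, which brings the median of all genes to -0.0069) 8 cathepsins were higher and 1 lower, against 23.1% and 21.3% of tested genes, and with quantile normalization, which gives all libraries the same distribution, 5 were higher and 1 lower, against 19.4% and 26.7%. A fold change of at least 2 besides was met by 5.26% of tested genes and by 0 cathepsins in limma, at the adjusted or the unadjusted p. In these bulk samples, fewer cells of a type and less RNA per cell cannot be told apart.

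Cathepsin levels spanned over 3 orders of magnitude. By FPKM in control BMDMs the order ran *Ctsb* (7622), *Ctsd* (3357), *Ctss* (3016), *Ctsa* (1371), *Ctsl* (934), *Ctsz* (759), *Ctsc* (474), *Ctsh* (326), *Ctsk* (33.0) and *Ctse* (1.66), and no neighbors in this order had overlapping ranges. The order differed in CITED2-deficient BMDMs at 3 places: *Ctss* stood above *Ctsd*, *Ctsz* above *Ctsl*, and *Ctsh* above *Ctsc*, again with no overlap between neighbors. The FPKM follow the mean length of the annotated transcripts of each gene (for *Ctsa* 926 bases over 16 transcripts of 378 to 3646 bases), so levels of different genes rest on that length.

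**Figure D1:**
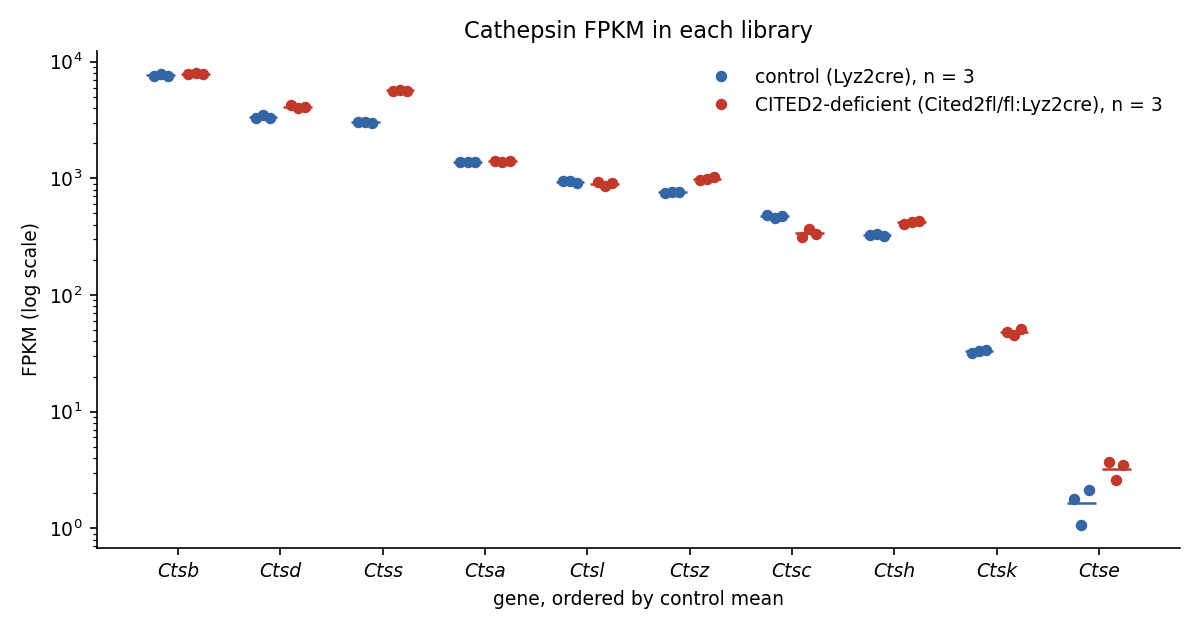
FPKM (log scale) of the 10 cathepsins in each of the 3 control (blue) and 3 CITED2-deficient (red) libraries, with points for libraries and lines for group means. The red points of *Ctss* lie at 5642 to 5692, above the blue points at 2984 to 3055, while those of *Ctsc* lie below, and the groups of *Ctsl* overlap.

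*Ctss* (ENSMUSG00000038642, mm10 chromosome 3, 95526786 to 95556403, plus strand) encodes a cysteine endopeptidase that stays active near neutral pH and cleaves the invariant chain. Control replicates 1 to 3 had an FPKM of 3009.7, 3055 and 2984, and the CITED2-deficient libraries reached 5652, 5692 and 5642. The 3 CITED2-deficient libraries lay far above the 3 control libraries, and the spread within each group was small. This was a log2 fold change of 0.91 ± 0.02 (standard error; limma, adjusted p = 5.77e-09), or 1.88-fold with a 95% interval of 1.81 to 1.95. No other cathepsin changed more on this scale, and 517 of the 11687 tested genes rose more.

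*Ctsk* (ENSMUSG00000028111, chromosome 3, 95499256 to 95509362, plus strand) encodes a collagen-degrading protease best known from osteoclasts and lies beside *Ctss*, ending 17424 bp before its start. The control libraries had an FPKM of 32.0, 33.1 and 33.7 (replicates 1 to 3), and the CITED2-deficient libraries 48.2, 45.2 and 50.7. Every CITED2-deficient value lay above every control value (log2 fold change 0.53 ± 0.05, limma adjusted p = 2.5e-05). Fibroblasts can express *Ctsk* too, and the stromal markers summed to 599 FPKM in CITED2-deficient replicate 1 and to 206 and 208 in replicates 2 and 3, against 54.0 to 63.8 in control libraries. The log2 fold change of *Ctsk* was 0.525 without replicate 1 and 0.528 with all libraries, but the stromal sum stayed above control in the others, and its part in the rise of *Ctsk* was not tested. Of the tested neighbors on either side of the pair, *Arnt*, 2016 bp before *Ctsk*, fell (-0.23, limma adjusted p = 0.00224), and *Golph3l*, 32531 bp after *Ctss*, rose (0.17, adjusted p = 0.00984).

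The RefSeq promoter windows of this pair (250 bases before to 50 after the start, GRCm38.p6, plus strand) are shown because both genes rose. Capitals mark matches on either strand to 4 motifs, chosen after the sequences had been seen: the E-box CACGTG, its extended form TCACGTGAC, which contains it and is bound by lysosomal regulators such as TFEB, the interferon response type (GAAA, any 2 bases, GAAA), and the ETS core GAGGAAGT of factors such as PU.1. Windows were found for 7 of the 10 genes, and not for *Ctsb*, *Ctse* and *Ctsh*.
Ctss, chr3:95526536-95526835: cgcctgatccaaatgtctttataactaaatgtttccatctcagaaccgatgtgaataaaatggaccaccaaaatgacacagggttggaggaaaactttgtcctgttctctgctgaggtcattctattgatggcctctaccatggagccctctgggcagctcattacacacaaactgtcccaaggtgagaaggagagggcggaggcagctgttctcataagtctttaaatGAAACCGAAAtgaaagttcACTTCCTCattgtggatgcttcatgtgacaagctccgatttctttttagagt
Ctsk, chr3:95498960-95499259: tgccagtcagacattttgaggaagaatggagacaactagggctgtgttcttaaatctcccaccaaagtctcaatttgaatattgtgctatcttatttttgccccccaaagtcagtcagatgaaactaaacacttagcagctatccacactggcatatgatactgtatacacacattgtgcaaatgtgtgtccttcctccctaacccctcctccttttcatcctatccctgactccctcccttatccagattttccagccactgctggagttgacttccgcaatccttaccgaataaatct
The *Ctss* window held 1 interferon response type match with its first base at -21 from the start and 1 ETS core at -2. The first motif was present in 3.44% and the second in 3.20% of 32851 windows of the same length. The *Ctsk* window held none of the 4 motifs.

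*Ctsz* and *Ctsh* encode cysteine proteases that cut from the chain ends, *Ctsz* as a carboxypeptidase and *Ctsh* mainly as an aminopeptidase. *Ctsz* (ENSMUSG00000016256, chromosome 2, 174427493 to 174439039, minus strand) had an FPKM of 755, 763 and 758 in control libraries and of 962, 985 and 1017 in CITED2-deficient libraries (replicates 1 to 3). *Ctsh* (ENSMUSG00000032359, chromosome 9, 90054152 to 90076089, plus strand) had 324, 334 and 322 in control and 407, 419 and 433 in CITED2-deficient replicates. For each of them the 3 CITED2-deficient libraries lay above all control libraries. The log2 fold changes were 0.38 for *Ctsz* (± 0.03, limma adjusted p = 4.76e-06) and 0.36 for *Ctsh* (± 0.03, adjusted p = 1.52e-05), that is 1.30-fold and 1.29-fold.

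The aspartic protease genes rose from very different levels. *Ctsd* (ENSMUSG00000007891, chromosome 7, 142375911 to 142388038, minus strand) encodes the main aspartic endopeptidase of lysosomes, and it stood at an FPKM of 3303, 3455 and 3313 in control libraries and of 4243, 3967 and 4092 in CITED2-deficient libraries. The groups did not overlap (log2 fold change 0.29 ± 0.03, limma adjusted p = 8.79e-05, 1.22-fold). After quantile normalization the log2 fold change of *Ctsd* was 0.039 and the call was lost (adjusted p = 0.349).

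*Ctse* (ENSMUSG00000004552, chromosome 1, 131638306 to 131675505, plus strand), an endosomal protease of immune and gastric cells, was near the filter. The control libraries had an FPKM of 1.77, 1.06 and 2.14 and the CITED2-deficient libraries 3.68, 2.58 and 3.48, from 34 to 75 and 108 to 173 fragments. The groups did not overlap, and the lowest value of each stood in replicate 2 (log2 fold change 0.69 ± 0.17, limma adjusted p = 0.00965). The added 1 in log2(FPKM + 1) holds this change down, and limma-voom on the recovered fragments gave 1.00 (adjusted p = 0.00123).

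The promoter windows of *Ctsd*, which rose, and of *Ctsa*, which did not pass, are set together because both held the extended E-box. The *Ctsa* window is the second of 2.
Ctsd, chr7:142387778-142388077, minus strand: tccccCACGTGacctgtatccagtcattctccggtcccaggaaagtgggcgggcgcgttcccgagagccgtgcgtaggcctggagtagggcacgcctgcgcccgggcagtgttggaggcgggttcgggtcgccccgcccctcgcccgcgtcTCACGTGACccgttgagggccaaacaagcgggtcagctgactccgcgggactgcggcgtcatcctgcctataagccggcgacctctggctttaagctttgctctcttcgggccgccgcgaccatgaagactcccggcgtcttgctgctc
Ctsa, chr2:164833523-164833822, plus strand: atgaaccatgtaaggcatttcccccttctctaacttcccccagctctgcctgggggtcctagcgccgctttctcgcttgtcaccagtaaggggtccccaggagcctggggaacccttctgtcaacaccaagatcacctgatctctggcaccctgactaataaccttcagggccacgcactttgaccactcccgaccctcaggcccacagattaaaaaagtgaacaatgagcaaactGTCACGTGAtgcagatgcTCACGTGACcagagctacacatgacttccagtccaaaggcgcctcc
In the *Ctsd* window the extended E-box began at -99 and a further E-box at -245. The *Ctsa* window held 2 extended E-boxes, with first bases at -14 and 5. The extended form occurred in 0.782% and the E-box in 7.15% of all windows, and *Ctsl* held 1 E-box at -236. The window of *Ctsz*, which rose, and the first *Ctsa* window held none of the motifs.

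Cathepsin C, or dipeptidyl peptidase I, removes dipeptides from the amino terminus of granule serine proteases and thereby activates them. *Ctsc* (ENSMUSG00000030560, chromosome 7, 88278085 to 88310888, plus strand) was the only one of the 10 genes that fell past the threshold. In control libraries it had an FPKM of 485, 458 and 479.8, and in CITED2-deficient libraries of 312, 368 and 332. All CITED2-deficient values lay below all control values (log2 fold change -0.49 ± 0.06, limma adjusted p = 8.12e-05), or 0.71-fold with a 95% interval of 0.652 to 0.775. Its promoter window is shown because no other cathepsin fell past the threshold. The window held 1 ETS core, at -151, the motif that the *Ctss* window also held.
Ctsc, chr7:88277835-88278134, plus strand: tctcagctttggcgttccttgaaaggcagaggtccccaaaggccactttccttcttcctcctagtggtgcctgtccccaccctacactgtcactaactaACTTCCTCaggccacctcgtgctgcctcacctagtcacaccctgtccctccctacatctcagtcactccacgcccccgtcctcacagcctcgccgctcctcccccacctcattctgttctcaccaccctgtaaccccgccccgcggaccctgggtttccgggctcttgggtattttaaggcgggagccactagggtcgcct

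Granule proteases that cathepsin C activates fell with it. Of 4 listed genes 3 were tested, and all 3 were lower: *Elane*, neutrophil elastase, from 12.4 ± 0.491 to 2.15 ± 0.0701 FPKM, *Prtn3* from 14.3 ± 0.488 to 2.52 ± 0.385 and *Ctsg* from 4.22 ± 0.599 to 0.626 ± 0.0471 (SD, n = 3 each). Their log2 fold changes were -2.08, -2.12 and -1.68 (adjusted p from 4.32e-08 to 5.52e-06 from limma). The added 1 in log2(FPKM + 1) holds these changes down, and limma-voom on recovered fragments gave -2.51, -2.49 and -2.70 in the same order. These genes mark neutrophil precursors and were present at 49 to 225 fragments in control and 10 to 57 in CITED2-deficient libraries. Of the 8 tested genes on the list of neutrophil and precursor markers, which holds *Elane* and *Prtn3*, 6 fell, *Ltf*, the granule protein lactoferrin, rose (94.3 to 177 FPKM, log2 fold change 0.90), and *S100a9* did not pass. *Ctsc* itself had 12421 to 14372 fragments, and the part of such cells in its fall was not tested.

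The most abundant cathepsin, *Ctsb* (ENSMUSG00000021939, chromosome 14, 63122462 to 63145923, plus strand), a cysteine protease with endopeptidase and carboxydipeptidase activity, had an FPKM of 7564, 7786 and 7517 in control libraries, against 7903, 7938 and 7861 in CITED2-deficient libraries. *Ctsl* (ENSMUSG00000021477, chromosome 13, 64359337 to 64370890, minus strand), an endopeptidase, had 939, 942 and 919.97 against 921, 860 and 918. *Ctsa* (ENSMUSG00000017760, chromosome 2, 164832873 to 164841032, plus strand), the carboxypeptidase that also shields neuraminidase 1 and beta-galactosidase in the lysosome, had 1378, 1368 and 1368 against 1396, 1381 and 1404. The groups of *Ctsl* overlapped, while those of *Ctsb* and *Ctsa* lay just apart.

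The changes of these genes were small, and their 95% intervals were 0.996 to 1.08-fold for *Ctsb*, 0.98 to 1.05-fold for *Ctsa* and 0.916 to 1.01-fold for *Ctsl* (adjusted p = 0.123, 0.421 and 0.186 from limma). Their calls depended on scaling: after median-ratio scaling, *Ctsb* (0.16) and *Ctsa* (0.13) passed as higher and *Ctsl* was at 0.050, while after quantile normalization *Ctsb* was at -0.042 and *Ctsa* at -0.0070. In limma-voom on recovered fragments *Ctsb* passed with 0.052 (adjusted p = 0.0102). *Ctsa* overlaps *Pltp* and *Neurl2* on the opposite strand, both of which fell (*Pltp* from 2374 to 1653 FPKM). The libraries were stranded, but the sources used here do not say whether counting used the strand.

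**Figure D2:**
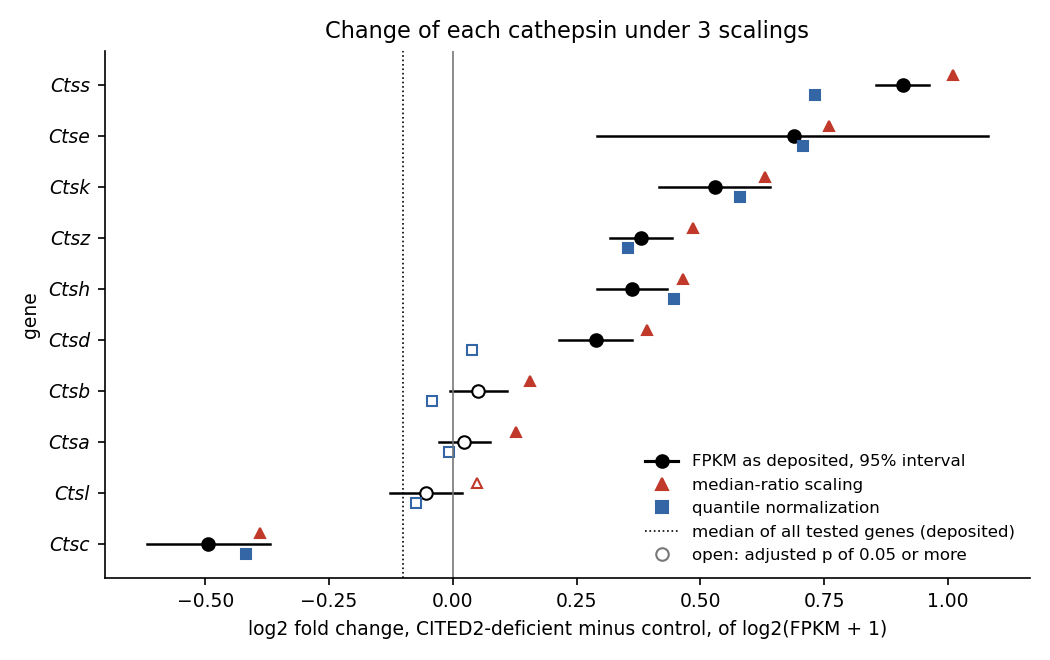
Log2 fold change of each cathepsin (CITED2-deficient minus control, of log2(FPKM + 1)) with the FPKM as deposited (circles, 95% interval), after median-ratio scaling (triangles) and after quantile normalization (squares), with open symbols for adjusted p of 0.05 or more and a dotted line at the median of all tested genes (-0.10). *Ctss*, *Ctse*, *Ctsk*, *Ctsz* and *Ctsh* lie to the right and *Ctsc* to the left under each of the 3 scalings, and the symbols of *Ctsb*, *Ctsa* and *Ctsl* fall on both sides of 0.

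The summed FPKM of the 10 genes was 17791, 18195 and 17699 in control and 21848, 21657 and 21754 in CITED2-deficient replicates 1 to 3, a ratio of means of 1.22. Without *Ctss* the ratio was 1.08. *Ctss* made up 16.9% ± 0.0626 (SD, n = 3) of this sum in control and 26.0% ± 0.221 (SD, n = 3) in CITED2-deficient libraries. The share of *Ctsb* was 42.6% ± 0.175 in control and 36.3% ± 0.288 in CITED2-deficient BMDMs, although its own FPKM did not pass, and that of *Ctsd* was 18.8% in both. For each *Ctsb* unit of FPKM there were 0.396 ± 0.00296 of *Ctss* in control and 0.717 ± 0.00129 in CITED2-deficient BMDMs, and per unit of *Ctsc* there were 6.37 ± 0.261 and 16.9 ± 1.35. These shares and ratios are of the FPKM as deposited. They are the same after median-ratio scaling, which multiplies all genes of a library alike, but not after quantile normalization.

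**Figure D3:**
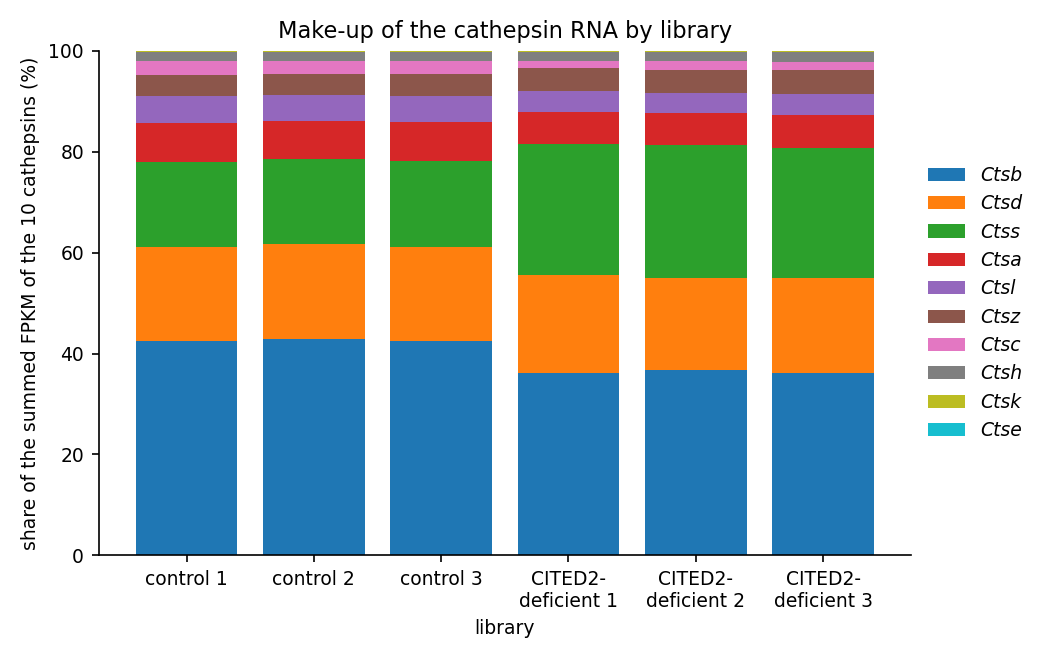
Share (%) of each cathepsin in the summed FPKM of the 10 genes, as stacked bars for the 6 libraries. The *Ctss* segment takes 16.8% to 16.9% in the control bars and 25.9% to 26.3% in the CITED2-deficient bars, and the *Ctsb* segment 42.5% to 42.8% and 36.1% to 36.7%.

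The lists of genes that act with cathepsins hold 76 genes, of which 58 are listed and 45 were tested, with 9 higher and 22 lower and a median log2 fold change of -0.11. After median-ratio scaling this split was 14 higher and 16 lower, and that of all tested genes moved from 32.5% to 52.0% higher among calls. Among 5 tested inhibitors 3 rose and none fell. *Cst3*, the secreted cystatin C, rose from 2057 ± 44.4 to 2253 ± 95.3 FPKM (log2 fold change 0.13, adjusted p = 0.0121 from limma), and *Cstb*, the cytosolic cystatin B, from 416 ± 15.1 to 480.2 ± 12.5 (0.21, adjusted p = 0.000868). *Serpina3g*, a serpin that inhibits cysteine cathepsins, rose from 1.04 ± 0.133 to 4.82 ± 0.909 (4.64-fold by the ratio of means, adjusted p = 1.86e-05), and belongs to a family of similar genes among which fragments could have been divided.

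Of 6 tested relatives of the cathepsins 1 rose and 3 fell. *Napsa*, the aspartic protease napsin A, rose from 40.7 ± 2.35 to 77.7 ± 4.4 FPKM (log2 fold change 0.92, adjusted p = 1.35e-06 from limma). *Ctsf*, a cysteine cathepsin, fell from 12.5 ± 0.599 to 4.57 ± 0.215 (-1.27, adjusted p = 8.12e-07), and *Lgmn*, the asparaginyl endopeptidase that processes several cathepsins, fell from 1644 ± 15.2 to 1397 ± 42.6 (-0.24, adjusted p = 0.000136). *Ctso* (0.069) and *Tpp1* (-0.061) did not pass.

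Among 12 genes of lysosomal sorting 3 rose, 4 fell and 5 did not pass. After median-ratio scaling the majority turned, with 5 higher and 3 lower. *Igf2r*, the large mannose 6-phosphate receptor, rose from 72.2 ± 1.44 to 107 ± 1.09 FPKM (log2 fold change 0.56, adjusted p = 8.34e-07 from limma), and *Gnptab*, a subunit of the enzyme that makes the tag, rose by 0.41. *M6pr*, the small receptor, was at 0.012 and did not pass. *Sort1*, the alternative sorting receptor sortilin, fell from 11.4 ± 0.581 to 6.17 ± 0.515 (-0.79, adjusted p = 3.27e-05). Among 5 transcription factors *Mitf* rose (0.23), *Ciita* (-0.66), *Tfeb* (-0.17) and *Tfe3* (-0.11) fell, and *Tfec* did not pass. The calls of *Tfeb* and *Tfe3* were lost after median-ratio scaling (-0.063 and -0.0055).

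Class II genes fell while *Ctss* rose. Of 9 tested partners and clients 8 fell, and their median log2 fold change was -0.67. *Cd74*, the invariant chain that cathepsin S cleaves, had an FPKM of 1267, 1198 and 1149 in control libraries, against 751, 801 and 843 in CITED2-deficient libraries (log2 fold change -0.59, adjusted p = 9.27e-06 from limma), with no overlap of the groups. *H2-Aa*, *H2-Ab1*, *H2-Eb1*, *H2-DMa* and *H2-DMb1* fell by 0.67 to 0.80 on the log2 scale, and *Ifi30*, the lysosomal thiol reductase, by 0.51. *Neu1*, a partner of cathepsin A, fell by 0.19 (adjusted p = 0.0054, lost after median-ratio scaling at -0.089), and *Glb1* was at -0.0094 and did not pass.

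Osteoclast genes did not share one direction with *Ctsk*. Of 6 tested genes, *Atp6v0d2* rose (138 ± 8.0 to 177 ± 3.0 FPKM, log2 fold change 0.36, adjusted p = 0.000114 from limma), *Mmp9* (-0.24) and *Nfatc1* (-0.19) fell, and *Acp5* (0.16), *Itgb3* (0.075) and *Tnfrsf11a* (0.12) did not pass. After median-ratio scaling *Mmp9* and *Nfatc1* did not pass, and 3 genes of the list were higher.

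The lysosomal hydrolases, enzymes that share the compartment but cut sugars, lipids or nucleic acids, moved in both directions. Of 25 tested hydrolases 8 rose and 11 fell, with a median log2 fold change of -0.0075, against 6 and 1 of 10 cathepsins with a median of 0.33. After median-ratio scaling the majority turned, with 11 hydrolases higher and 7 lower and a median of 0.096, against 8 and 1 cathepsins with a median of 0.43. Their changes ran from -0.66 for *Idua* to 0.55 for *Galns*. No test compared the lists.

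**Figure D4:**
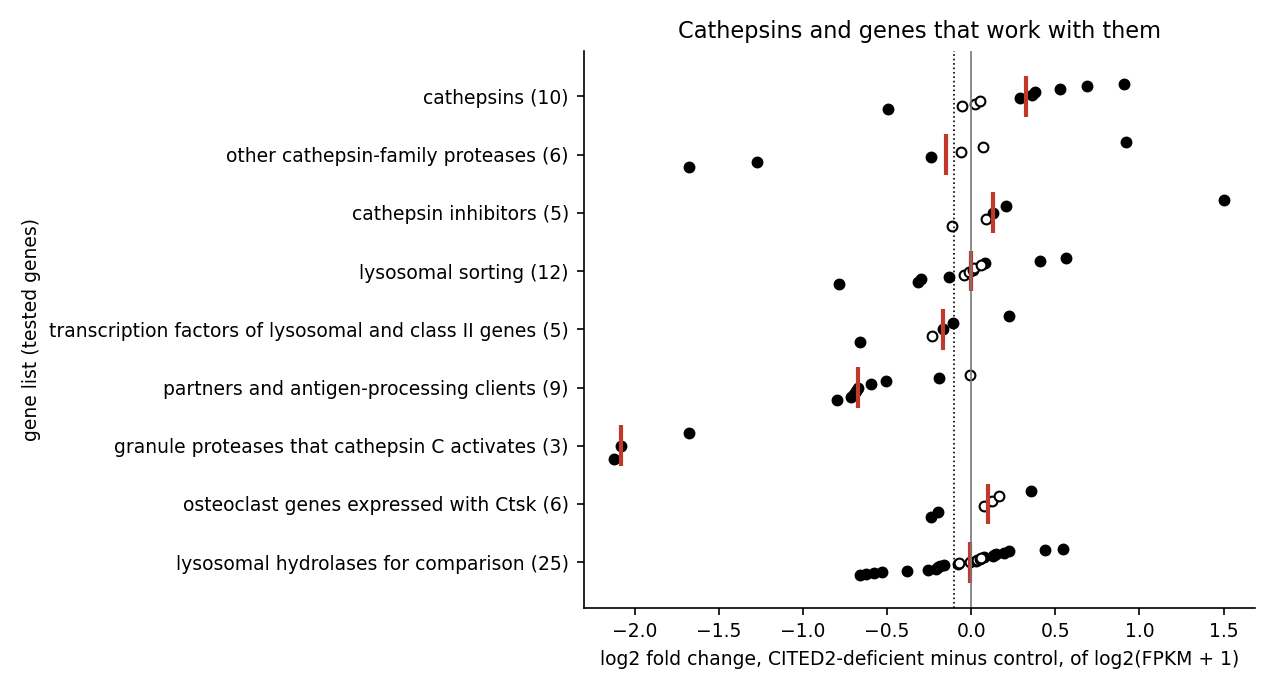
Log2 fold change (CITED2-deficient minus control, of log2(FPKM + 1)) of the tested genes of each list, filled where adjusted p is below 0.05, with a red bar at the list median and a dotted line at the median of all tested genes. The cathepsin points run from -0.49 to 0.91 with a median of 0.33, the partners and clients lie below 0, and the 3 granule proteases lie between -2.12 and -1.68.

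By Pearson's r of log2(FPKM + 1) over the 6 libraries, the genes most like *Ctss* were *B2m*, the light chain of MHC class I (2485 FPKM in control and 5231 in CITED2-deficient BMDMs), *H2-Q6*, a class I heavy chain with close relatives (6.38 to 73.95), and *Npc2*, a lysosomal cholesterol carrier (476 to 908). The r values were 0.9997 or more, but 415 genes reached 0.99. The 6 libraries form 2 groups that also differ in depth (a ratio of 1.34, CITED2-deficient over control), and their values share 1 scaling. The genes most like *Ctsb* were *Cd68* (r = 0.98847), *Nuak2* (0.98782) and *Gnb1* (0.985).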

How the data were processed

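By their methods, the authors removed ribosomal RNA from total RNA, made stranded libraries and mapped reads to mm10 with STAR. They name Cuffdiff with the GENCODE annotation as the source of the FPKM, deposited as 1 value per gene and library. The sources used here name no tool version or annotation release. Replicates were not pooled. Columns were matched to samples by genotype and number. From the deposited FPKM, whole fragment numbers were recovered with GENCODE vM21 mean transcript lengths, rounded down (in all 6 libraries, 96.1% of 22239 matched genes came within 0.02 of an integer). Replicates differed by more than sampling noise, and none was counted as a duplicate. limma 3.58.1 (R 4.3.3, trended variance) was run on log2(FPKM + 1) of the 11687 genes whose mean FPKM reached 1, and p-values were adjusted over all of them by Benjamini-Hochberg. Cuffdiff's own test needs alignments and was not repeated. Steps were tested on simulated data. With 3 against 3 libraries an exact two-sided permutation p cannot fall below 0.1.

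The 10 cathepsins were taken by symbol, with no threshold on a value, but they, the lists of related genes and the markers were chosen with earlier results of these data known. Named genes are all cathepsins, list members with the largest changes or a direct role, *Cited2*, and the 3 genes most like *Ctss* and *Ctsb*. *Ltf*, *S100a9*, *Lyz2*, *Oscar*, *Lum*, *Thy1*, *Arnt*, *Golph3l*, *Pltp*, *Neurl2*, *Hmgb1-ps5*, *Nelfcd* and *Fdft1* were named after their values were seen, as markers, neighbors or overlapping genes. Alternatives were other pseudocounts, filters, scalings and limma settings, a replicate block, each library left out, a fold threshold and limma-voom on recovered fragments.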

Additional observations from a re-analysis of the deposited data

How the results depend on the processing

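Of 159 values of single cathepsins under 16 alternatives, 152 kept their direction and their side of the threshold. *Ctss*, *Ctsc*, *Ctsh*, *Ctsk* and *Ctsz* did so under all 16, and *Ctse* under the 15 that tested it, since a mean FPKM of at least 5 left it out. The direction turned for *Ctsl* after median-ratio scaling (0.0495), and for *Ctsa* (-0.00703) and *Ctsb* (-0.0419) after quantile normalization. The call of *Ctsd* was lost after quantile normalization (0.0386), and calls were gained for *Ctsa* (0.127) and *Ctsb* (0.156) after median-ratio scaling and for *Ctsb* in limma-voom (0.0522). The cause was not tested. The count of cathepsins past the threshold was 7 in the main fit, 9 after median-ratio scaling, 6 after quantile normalization and 8 in limma-voom. Whichever library was left out, it was 7. Of all 11687 tested genes, 5994 passed in the main fit, 5186 after median-ratio scaling and 5390 after quantile normalization. In limma-voom 6178 of 11682 genes passed. With a fold change of at least 2 also required, the count of cathepsins was 0 in limma, as none reached a log2 fold change of 1. *Ctss* reached 1.01 after median-ratio scaling and *Ctse* 1.00 in limma-voom. The other pathway genes then gave 5 calls and all genes 615. Leaving out 1 library gave 26 to 30 calls for the pathway genes and 5211 to 5475 for all genes. The replicate numbers did not pair the libraries (correlations of deviations 0.0138, 0.00784 and 0.0402, and not every library correlated best with its own number). With a replicate block the counts were 7 cathepsins, 30 pathway genes and 5708 genes, and no cathepsin call changed. A planned count test was not run, because the deposited unit is FPKM, and limma-voom was run on the recovered fragments instead. Depth limits *Ctse*, with 34 to 173 fragments, while every other cathepsin had 866 or more.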

Other observations

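Ranked by FPKM among the 22248 listed genes, *Ctsb* stood at 3 in every control library and at 3 or 4 in CITED2-deficient libraries. *Ctss* stood at 17 or 18 in control and at 6 to 8 in CITED2-deficient BMDMs, and *Ctsc* at 181 to 209 and 240 to 317. Fragments of the 10 cathepsins made up 3.12% to 3.21% of the depth in control and 3.70% to 3.73% in CITED2-deficient libraries.

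*Hmgb1-ps5*, a pseudogene inside *Ctss* on the same strand, was at 1.76 and 3.51 FPKM (log2 fold change 0.70, adjusted p = 0.00203 from limma). *Nelfcd*, which overlaps *Ctsz* on the opposite strand, was at 0.041, and *Fdft1*, which overlaps *Ctsb*, at 0.18, and neither passed.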
